A study of Mus musculus with 9 samples.

Results

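The 9 genes described here encode replication-independent histone variants of mouse chromatin, and they were chosen by name from the 23360 genes listed for each library. They are H2afx, H2afz, H2afv, H2afy and H2afy2 of the H2A family, H3f3a and H3f3b of the H3 family, and H1f0 and H1fx of the linker histone H1 family. All 9 were expressed highly enough to be tested, and none was at 0 in any library. RNA was measured in 9 libraries of ribosome-depleted total RNA read on an Ion Proton. A1G tumours were medulloblastomas from animals of mixed strain carrying Math1-cre, the A1G allele and 1 mutant copy of Ptch1, the Hedgehog receptor gene. Ptch1 tumours were medulloblastomas from Ptch1+/- animals of mixed strain, and the comparison tissue was whole cerebellum of wild-type adult C57BL/6 mice, with 3 libraries in each group. Both tumour kinds therefore carried the Ptch1 mutation, and the cerebellum carried none of these alleles. Math1 is another name for Atoh1, whose promoter drives Cre in granule neuron progenitors of the cerebellum and in some other cells. The design text describes the A1G tumours as driven by ATOH1 together with Sonic Hedgehog signalling.

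Most histone genes are transcribed only while DNA is being copied, from clustered genes without introns whose mRNAs end in a stem-loop instead of a poly(A) tail. Replication-independent variants are for the most part made through the whole cell cycle and in cells that have stopped dividing, from polyadenylated mRNAs, and dedicated chaperones place them into chromatin without DNA synthesis. H2afx is a partial exception, an intronless gene whose mRNA is known both with a poly(A) tail and, linked to replication, with a stem-loop end. In neurons that no longer divide, H3.3 replaces the replication-dependent H3 over time, and H1.0 is the linker histone known for building up as cells leave the cell cycle. H2A.X carries the serine that is phosphorylated around DNA breaks, H2A.Z marks promoters and enhancers, and macroH2A carries a large extra domain and lies mostly in repressed chromatin.

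The coding sequences show how far the paired genes differ and what sets H2A.X off. H3f3a and H3f3b encode one and the same protein, yet 316 of their 411 coding bases were identical (76.9%), and the longest run they shared was 23 bases. The first 90 coding bases are shown for both, from the GENCODE M21 transcripts, with capitals at the 20 bases that differ.
H3f3a: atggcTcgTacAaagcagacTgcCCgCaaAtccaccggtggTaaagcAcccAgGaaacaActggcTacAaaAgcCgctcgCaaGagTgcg
H3f3b: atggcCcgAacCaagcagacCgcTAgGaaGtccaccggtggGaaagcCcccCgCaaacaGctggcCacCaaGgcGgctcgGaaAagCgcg
H2afz and H2afv, the pair of H2A.Z genes, were identical at 306 of 387 coding bases (79.1%), with a longest shared run of 14. H2afy and H2afy2 matched at 70.7% of aligned coding bases and H1f0 and H1fx at 56.3%. The last 30 coding bases of H2afx hold the serine and glutamine codons of the phosphorylated end, in capitals, which neither H2A.Z gene has.
H2afx: aaggcctcgcaggccTCTCAGgagtactga
H2afz: gggaagaaaggacaacagaagactgtttaa
H2afv: ggaaagaaggggcagcagaaaactgcttag

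Promoters from the RefSeq table (GRCm38.p6), each 250 bases before to 50 bases after a start site, matched 8 of the 9 genes. Annotated exons, of any gene on either strand, covered all 250 bases before the start site in H2afy2, H1f0 and H1fx. They covered 214 in H3f3b, 138 in H2afz, 107 in H3f3a, 81 in H2afy and 0 in H2afv. The H3f3b start site used lies inside that gene's span, so these windows are not all sequence upstream of transcription. The CCAAT box, searched as CCAAT on both strands, was found in 5 of these 8 (H2afz, H2afv, H2afy2, H3f3a and H3f3b), against 37.4% of 32851 promoters of the same length. In H2afy2 the only match lay after the start site, at base 32, and a match of H2afz lay there too, at base 23. H2afv and H3f3b held 4 copies each. The 250 bases before the H2afv start, chr11:6444444-6444693 on the minus strand, show the arrangement, with capitals at each copy.
H2afv: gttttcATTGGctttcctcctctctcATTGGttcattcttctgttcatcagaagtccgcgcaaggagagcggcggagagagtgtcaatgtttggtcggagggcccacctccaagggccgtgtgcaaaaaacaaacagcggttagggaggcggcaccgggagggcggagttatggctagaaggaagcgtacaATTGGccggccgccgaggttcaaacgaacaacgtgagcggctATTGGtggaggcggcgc
All 4 copies lie on the opposite strand and so read ATTGG. Each other motif was searched on both strands and found in 1 or none of the 8. No count was tested against the share of all promoters. TTTGAA, the core of the cell cycle homology region, was in H2afv alone of the 8, against 17.9% of all promoters. TATAAA, the TATA box, was in H3f3b alone, against 13.6%, and AAACACA, a box of H1 promoters, in H3f3a alone, against 7.18%. The E2F letters TTTNGCGC (1.38% of all promoters), the Gli letters GACCACCCA (0.253%) and the E-box CANCTG (51.4%) were in none of the 8 windows.

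Depth ran from 2350941 to 3049987 fragments in A1G libraries, 2699234 to 9290237 in Ptch1 libraries and 3304042 to 5300936 in cerebellum libraries. Of those fragments, the 9 genes took 0.204% to 0.218% in A1G tumours, 0.185% to 0.252% in Ptch1 tumours and 0.0624% to 0.0887% in cerebellum. Levels are normalised counts-per-million (CPM), given as mean ± SD (n = 3 for a group and n = 6 for tumours), and tumours means both tumour kinds with equal weight. Log2 fold changes carry a standard error (SE) and a p from edgeR's quasi-likelihood test, adjusted by Benjamini-Hochberg over the 14337 genes tested, with 0.05 as threshold. The labels call the libraries of a group replicates without saying that each came from its own animal, so p-values measure the spread between libraries only. Strain, genotype and tissue coincide in every comparison with cerebellum and cannot be told apart there.

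Markers of cell types differed between the tissues, and these are bulk samples, in which fewer cells of a type and less RNA per cell cannot be told apart. All 8 dividing cell markers, among them Mki67 and Top2a, were higher in tumours, with a summed level of 1313 to 4776 CPM in A1G libraries, 4708 to 5872 CPM in Ptch1 libraries and 19.6 to 39.9 CPM in cerebellum libraries, where Ccnb1 and Cdk1 were at 0 in 2 libraries each. Of 8 granule neuron progenitor markers, 7 were higher, with sums of 3359 to 3832, 3563 to 4374 and 1276 to 1717 CPM in the same order of groups. All 8 mature granule neuron markers were lower in tumours, with sums of 459 to 1102 CPM in A1G libraries, 290 to 762 CPM in Ptch1 libraries and 6936 to 7663 CPM in cerebellum libraries. All 6 Purkinje cell, all 5 inhibitory interneuron and all 7 oligodendrocyte markers were lower too, as were 5 of 6 astrocyte and Bergmann glia markers. Pcp2, a Purkinje cell gene, was at 0 in every Ptch1 library. Of 6 microglia markers, 3 were higher and none lower, and of 5 endothelial markers, 2 were lower and none higher. Over all tested genes 20.7% were higher and 21.5% lower. The part of these cell types in the results on histone variants was not tested.

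All 9 variant genes were higher in tumours than in cerebellum, and none was lower. The background in that comparison was 20.7% of all tested genes higher and 21.5% lower. The 9 genes were chosen with earlier results of these data known, so the contrast with that background is a description only. The median log2 change was 1.83 over the 9 genes and 0.01 over all genes tested. The changes ran from 0.79 for H1f0 to 3.75 for H2afx, and in 8 of the 9 every tumour library lay above every cerebellum library, against 18.5% of all genes. H1f0 was the exception. Taken alone, A1G tumours were higher in 8 of the 9, against 16.3% of genes, and Ptch1 tumours in 9 of 9, against 20.2%. Without overlap they stood above cerebellum in 8 and 9 of the 9, against 22.5% and 27.2% of genes. Those comparisons share the cerebellum libraries and so are not separate evidence. Between the tumour kinds 0 of the 9 passed the test.

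**Figure D1:**
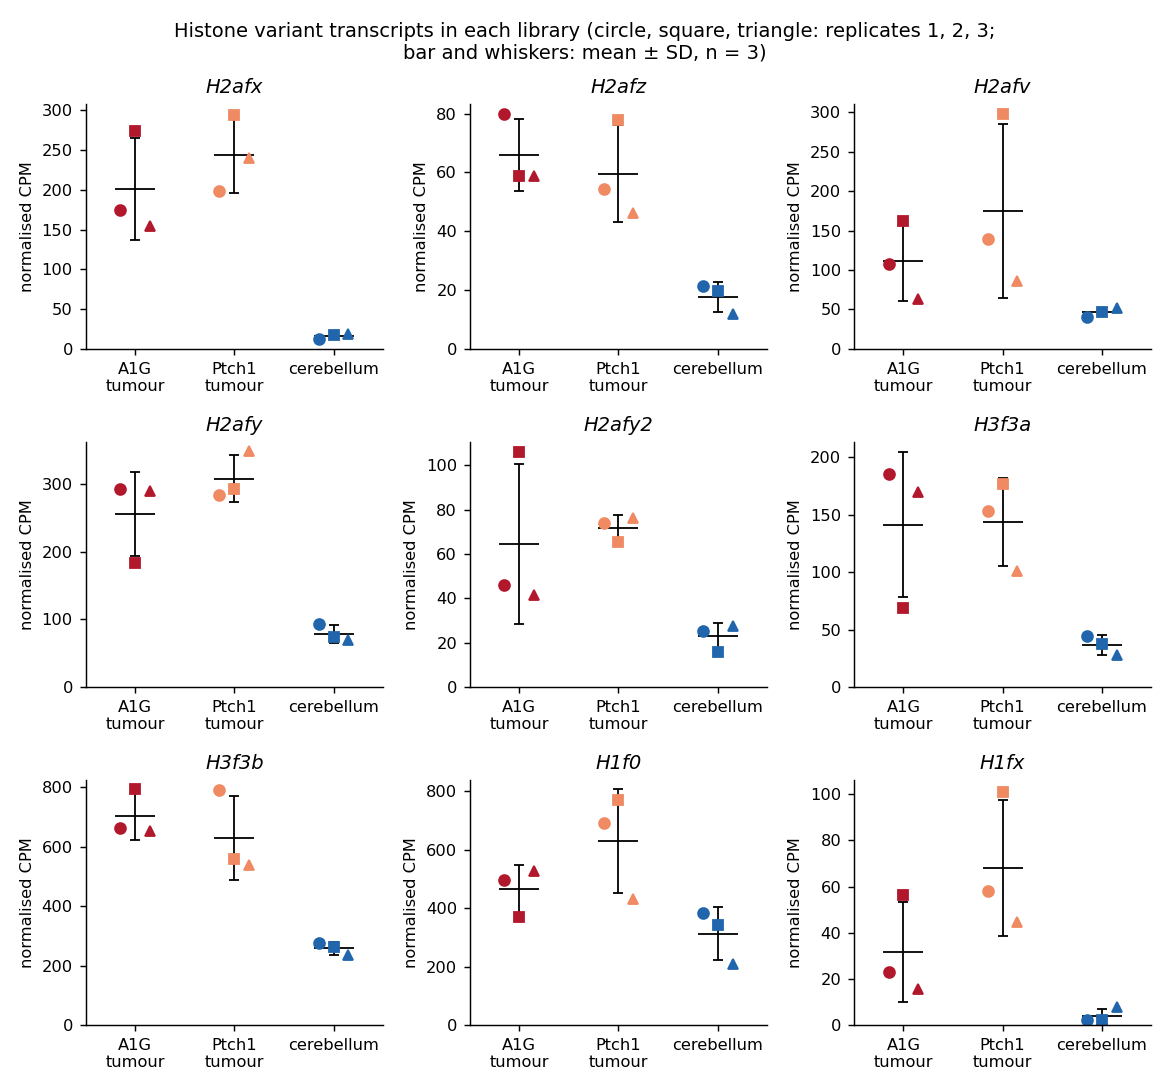
Normalised CPM (y axis, linear, from 0) of each of the 9 genes in the A1G tumour, Ptch1 tumour and cerebellum libraries, with a symbol per replicate and the mean ± SD (n = 3) as a bar with whiskers. The tumour libraries stand above the cerebellum libraries in every panel except H1f0, where A1G replicate 2 (372 CPM) lies under cerebellum replicate 1 (384 CPM).

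H2afx encodes H2A.X, the variant phosphorylated beside DNA double-strand breaks (chromosome 9, 44334694 to 44336077, mm10, a single exon on the plus strand). It had 174, 274 and 155 CPM in A1G libraries, 198, 294 and 240 CPM in Ptch1 libraries, and 12.9, 17.3 and 19.2 CPM in cerebellum libraries. The lowest tumour library was thus several times the highest cerebellum library. The tumours were 13.4-fold higher than cerebellum (log2 3.75, SE 0.31, adjusted p = 2.38e-06), a change that only 3.2% of tested genes exceeded. Over both tumour kinds and all libraries it was the largest change of the 9 genes, while in Ptch1 tumours that of H1fx was larger (log2 4.0). The change was 3.61 in A1G tumours (SE 0.32, adjusted p = 8.65e-06) and 3.89 in Ptch1 tumours (SE 0.33, adjusted p = 3.75e-06). H2afx was also the member whose rank moved most by FPKM, a level per length of transcript, ranked 3 of 9 in both tumour kinds and 7 in cerebellum. Leaving out any library kept its change between tumours and cerebellum within 3.60 to 3.89.

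H2afz and H2afv encode the H2A.Z.1 and H2A.Z.2 proteins, which exchange complexes place at promoters and enhancers. H2afz (chromosome 3, 137864487 to 137866922, 5 exons in its main transcript) had 79.99, 58.6 and 58.8 CPM in A1G libraries, 54.5, 77.97 and 46.4 CPM in Ptch1 libraries, against 21.5, 19.8 and 11.8 CPM in cerebellum libraries. Its tumour libraries all lay above those of cerebellum, and the log2 change was 1.83 (SE 0.30, adjusted p = 0.000387). H2afv (chromosome 11, 6427229 to 6444443, minus strand, 5 exons) had 108, 162 and 62.9 CPM in A1G libraries, 139, 298 and 86.2 CPM in Ptch1 libraries, against 41.0, 47.1 and 51.3 CPM in cerebellum libraries. These tumour libraries spread widely but did not reach down to the cerebellum values, and the log2 change was 1.58 (SE 0.41, adjusted p = 0.00741). In A1G tumours alone the H2afv change was 1.26 (SE 0.44, adjusted p = 0.0458). That call ended without A1G replicate 2 (0.88, adjusted p = 0.154) and in 5 other fits that left out 1 library, namely A1G replicate 1, Ptch1 replicate 1 and each cerebellum library (1.17 to 1.36). In Ptch1 tumours it was 1.91 (SE 0.45, adjusted p = 0.00479), and it was 1.28 without replicate 2, the library at 298 CPM, where it still passed.

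H2afy and H2afy2 encode macroH2A1 and macroH2A2, H2A variants with a globular macro domain attached. H2afy (chromosome 13, 56073619 to 56136361, minus strand, 9 exons) had 293, 183 and 290 CPM in A1G libraries, 284, 292 and 348 CPM in Ptch1 libraries, and 93.8, 73.6 and 68.9 CPM in cerebellum libraries. The tumours were 3.56-fold higher (log2 1.83, SE 0.25, adjusted p = 0.000101), with no overlap. H2afy2 (chromosome 10, 61738665 to 61784147, minus strand, 9 exons) had 46.1, 106 and 41.5 CPM in A1G libraries, 73.96, 65.4 and 76.2 CPM in Ptch1 libraries, against 25.2, 15.8 and 27.6 CPM in cerebellum libraries. The tumours were higher by a log2 change of 1.57 (SE 0.34, adjusted p = 0.00282), again with no overlap. Within the A1G group replicate 2 was the lowest of the 3 in H2afy and the highest in H2afy2. In A1G tumours alone the H2afy2 change of 1.49 (SE 0.38, adjusted p = 0.00941) no longer passed without cerebellum replicate 2 (1.30, adjusted p = 0.0517), and it was 0.93 without A1G replicate 2, the library at 106 CPM, where it still passed.

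H3f3a and H3f3b both encode H3.3, the replacement H3 that accumulates in neurons and that is mutated in childhood high-grade gliomas. H3f3a (chromosome 1, 180800832 to 180813943, minus strand, 4 exons) had 185, 68.9 and 170 CPM in A1G libraries, 153, 177 and 101 CPM in Ptch1 libraries, and 44.9, 37.7 and 27.6 CPM in cerebellum libraries. A1G replicate 2 was the lowest tumour library, yet still above all cerebellum libraries, and the log2 change was 1.96 (SE 0.35, adjusted p = 0.000773). H3f3b (chromosome 11, 116021912 to 116027962, minus strand, 6 exons) had 662, 795 and 651 CPM in A1G libraries, 789, 557 and 539 CPM in Ptch1 libraries, and 276, 263 and 236 CPM in cerebellum libraries. It was 2.57-fold higher in tumours (log2 1.36, SE 0.23, adjusted p = 0.000505). Its groups did not overlap, although it was among the most abundant members in both tissues.

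H1f0 and H1fx encode the replication-independent linker histones H1.0 and H1.X, which bind where DNA enters and leaves the nucleosome. H1f0 (chromosome 15, 79028450 to 79030504, a single exon on the plus strand) had 497, 372 and 528 CPM in A1G libraries, 692, 769 and 430 CPM in Ptch1 libraries, and 384, 344 and 210.4 CPM in cerebellum libraries. The tumour and cerebellum values overlapped, and the log2 change of 0.79 (SE 0.28, adjusted p = 0.0376) was the smallest of the 9 genes. That call ended in 6 of 9 fits that left out 1 library, namely A1G replicates 1 and 3, Ptch1 replicates 1 and 2, and cerebellum replicates 2 and 3, and it was lowest without the last (0.58, adjusted p = 0.129). In A1G tumours H1f0 stood 0.57 above cerebellum and did not pass the test (SE 0.31, adjusted p = 0.185). In Ptch1 tumours it was higher by 1.01 (SE 0.32, adjusted p = 0.0225), and that call ended in 4 such fits, without Ptch1 replicate 1 or 2 or cerebellum replicate 2 or 3 (0.79 to 1.08, adjusted p up to 0.0825). The difference between the tumour kinds in H1f0 was -0.44 (SE 0.31, adjusted p = 0.645), so H1f0 is not shown to differ between them.

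H1fx (chromosome 6, 87980421 to 87981637, a single exon on the minus strand) was the least abundant of the 9 in cerebellum. It had 23.2, 56.5 and 15.6 CPM in A1G libraries, 58.2, 101 and 44.8 CPM in Ptch1 libraries, against 2.36, 2.13 and 7.79 CPM in cerebellum libraries, the last from only 9, 7 and 39 fragments. Every tumour library exceeded the highest cerebellum library, and the log2 change was 3.45 (SE 0.58, adjusted p = 0.000453). The size rested on cerebellum replicate 3, since without it the change was 4.37. H1fx also has the highest GC content of the 9 main transcripts, 71.3%, and cerebellum replicate 3 leaned towards GC-rich genes. Across 13433 genes its deviation from the group mean correlated with transcript GC content at r = 0.24, against -0.154 and -0.138 in the other cerebellum libraries. Ptch1 replicate 3 leaned the same way in its group, at r = 0.173 against -0.0882 and -0.108. Its H1fx level was nevertheless the lowest of the Ptch1 libraries, at 44.8 CPM. With an adjustment for GC content, chosen after the data were seen, the H1fx change was 2.96 (SE 0.53, adjusted p = 0.000766). This was lower than the 3.45 without the adjustment, whereas leaving out cerebellum replicate 3 raised it to 4.37. The adjusted change of H2afx, with 62.3% GC, was 4.05 (SE 0.27, adjusted p = 5.91e-07). The part of GC content in the H1fx values of cerebellum replicate 3 and Ptch1 replicate 3 was not tested.

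**Figure D2:**
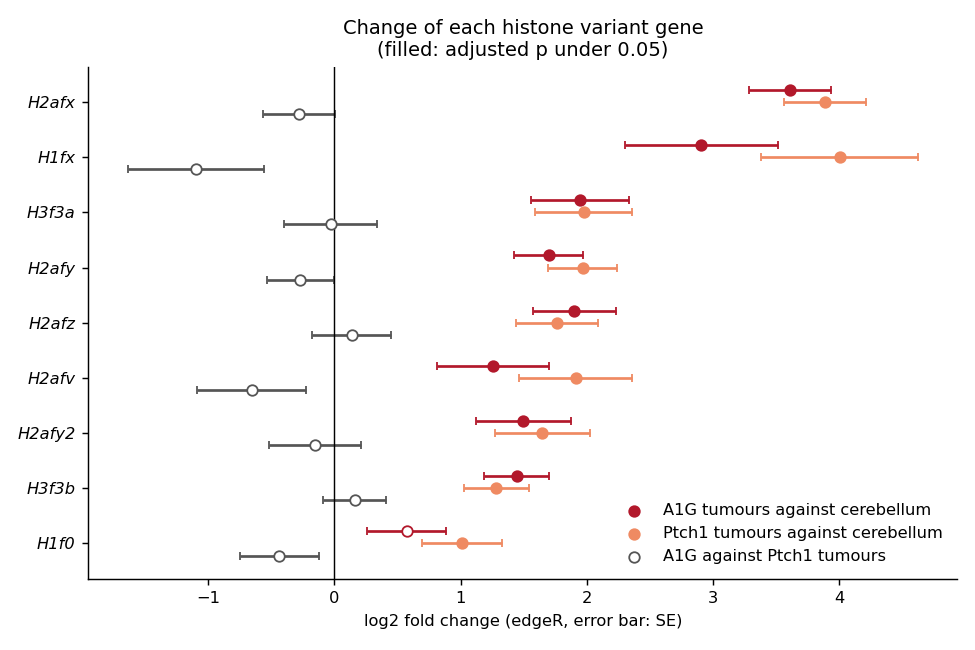
Log2 fold change (x axis) with its SE for each of the 9 genes, in A1G tumours against cerebellum, Ptch1 tumours against cerebellum and A1G against Ptch1 tumours; filled points have an adjusted p under 0.05. The points against cerebellum are filled except H1f0 in A1G tumours (0.57), and the points between tumour kinds, from -1.10 to 0.16, are all open.

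The comparison of A1G with Ptch1 tumours asked whether tumours with Math1-cre and the A1G allele had other levels of these genes than tumours with neither. None of the 9 passed edgeR's test or DESeq2's, none had an unadjusted p under 0.05 and the groups overlapped in every one. Over all genes edgeR passed 2 in either direction (0.0139%) and DESeq2 163, while 10.6% had an unadjusted p under 0.05, 6.69% lay higher in all A1G libraries without overlap and 8.84% lower. The largest difference was in H1fx, which averaged 31.8 ± 21.7 CPM in A1G libraries against 67.99 ± 29.4 CPM in Ptch1 libraries (log2 -1.10, SE 0.54, adjusted p = 0.496). It ran from -1.81 without A1G replicate 2 to -0.69 without Ptch1 replicate 2. H2afv followed, at 111 ± 49.7 CPM in A1G libraries against 174 ± 110 CPM in Ptch1 libraries, with a difference of -0.66 (SE 0.43, adjusted p = 0.613), which ran from -1.04 to -0.024 without the same libraries. The differences of H2afx (-0.28), H2afy (-0.27), H2afy2 (-0.15), H3f3a (-0.03), H2afz (0.14) and H3f3b (0.16) were smaller than their SEs or close to them, and that of H3f3a turned positive when libraries were scaled by their totals (0.08). With 3 libraries a side and SEs of 0.25 to 0.54, small differences could not be detected. Markers of other cell types were compared between the tumour kinds as well. Summed Purkinje cell markers stood at 326.5 to 659 CPM in A1G libraries and 165 to 261.7 CPM in Ptch1 libraries, without overlap. Of these 6 markers 1 passed, Calb1, a calcium-binding protein, at 17.3 ± 5.79 CPM in A1G libraries against 1.20 ± 0.558 CPM in Ptch1 libraries (log2 3.81, SE 0.40, adjusted p = 0.00627). The median log2 difference was 2.71 over these markers, 1.90 over the interneuron markers and 1.41 over the oligodendrocyte markers. None of the interneuron or oligodendrocyte markers passed edgeR's test, and their sums overlapped. Interneuron sums were 111.7 to 165.7 CPM in A1G libraries and 94.8 to 139.2 CPM in Ptch1 libraries. Oligodendrocyte sums were 331 to 432 CPM in A1G libraries and 67.7 to 386.5 CPM in Ptch1 libraries. The part of these cell types in the differences of the 9 genes was not tested.

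In the A1G group replicate 2 was at 1 end of the range for all 9 genes. It was the highest A1G library in H2afx, H2afv, H2afy2, H3f3b and H1fx and the lowest in H2afz, H2afy, H3f3a and H1f0. For H2afz this was close to a tie, at 58.63 CPM against 58.81 CPM in replicate 3. Of 3 libraries only the middle one is not at an end, and the share of all genes was not counted. The summed dividing cell markers of A1G replicate 2 (1313 CPM) were the lowest of any tumour library. Its deviations correlated with GC content at r = 0.203, against -0.161 and -0.0809 in the other A1G libraries. With the GC adjustment 0 of 9 genes passed between tumour kinds as well, and the part of the dividing cells was not tested. Without this library all 9 genes still passed against cerebellum over both tumour kinds, and 0 of 9 passed between tumour kinds.

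Compared per length of transcript, as FPKM within a group, H3f3b was the most abundant variant in tumours, at 395 ± 51.7 FPKM in A1G and 348 ± 79.9 FPKM in Ptch1 tumours, and stood at 140 ± 11.1 FPKM in cerebellum. H1f0 came second in tumours at 224 ± 36.3 and 298 ± 80.4 FPKM, and first in cerebellum at 145 ± 41.9 FPKM, where its libraries overlapped those of H3f3b. H3f3b and H1f0 did not overlap in A1G tumours and did in Ptch1 tumours. H2afx followed at 175 ± 58.7 FPKM in A1G and 208 ± 37.9 FPKM in Ptch1 tumours, and stood at 13.8 ± 2.70 FPKM in cerebellum. Its tumour libraries overlapped its neighbours in the order, so that place is not firm. At the low end, H2afy2 and H1fx had the lowest means of the 9 in each group, at 38.2 and 37.4 FPKM in A1G tumours, 41.7 and 77.9 FPKM in Ptch1 tumours, and 13.0 and 4.62 FPKM in cerebellum. In each group the higher of them overlapped the gene above it, so that place is not firm. That gene was H2afv in A1G tumours, H2afz in Ptch1 tumours (77.92 FPKM against 77.88 for H1fx) and H2afx in cerebellum.

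The ratio of paired genes within a library does not depend on how libraries are scaled. H3f3a stood below H3f3b in every library, with a mean log2 FPKM ratio of -1.25 ± 0.68 in tumours (n = 6) and -1.80 ± 0.24 in cerebellum (n = 3). H2afy stood above H2afy2 in every library, at 2.05 ± 0.72 and 1.77 ± 0.46 in the same order. Neither ratio passed an exact two-sided permutation test between tumours and cerebellum (p = 0.238 for H3f3a over H3f3b and 0.595 for H2afy over H2afy2), nor did H2afz over H2afv (-0.10 ± 0.69 against -0.51 ± 0.62, p = 0.429). H1f0 over H1fx stood at 3.14, 1.44 and 3.801 in A1G, 2.29, 1.65 and 1.98 in Ptch1 tumours, and 6.06, 6.06 and 3.48 in cerebellum. The A1G values reached past cerebellum replicate 3, and the difference of -2.82 had an exact permutation p of 0.0238 and a Benjamini-Hochberg p of 0.19 over the 8 tests made. Between tumour kinds the exact permutation p was 0.3 to 1 for the 4 ratios, where 3 libraries against 3 cannot go below 0.1. As a description, H2afx over H2afz was 0.51, 1.61 and 0.78 in A1G tumours, 1.25, 1.30 and 1.75 in Ptch1 tumours, and -1.36, -0.81 and 0.09 in cerebellum, without overlap.

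**Figure D3:**
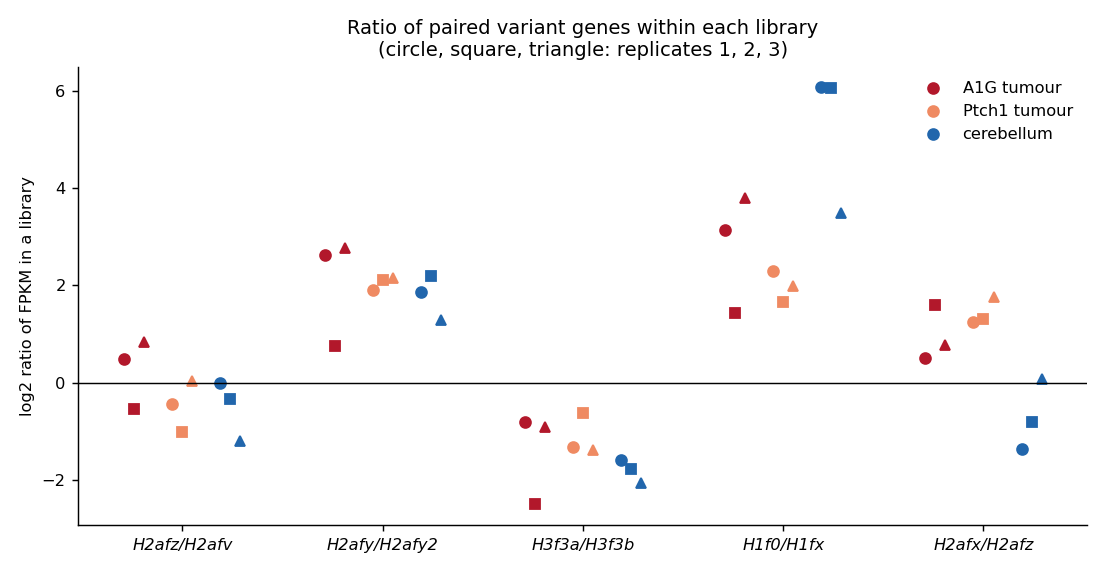
Log2 ratio of FPKM (y axis) of paired variant genes within each library, with colours for A1G tumours, Ptch1 tumours and cerebellum and a symbol per replicate. The groups overlap in the first 4 ratios, and H2afx over H2afz lies above 0.5 in all tumour libraries and at 0.09 or less in cerebellum.

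The 9 variants were set against the replication-dependent genes of their own histone class, as a share of the summed FPKM of both. Other variant genes outside the histone clusters, such as H2afj and Cenpa described below, were counted on neither side. The shares are therefore not of every H2A or H3 transcript. Although the H3.3 genes were higher in tumours, they made up a smaller share of H3 transcripts there, 8.05%, 9.83% and 8.49% in A1G tumours, 10.1%, 6.58% and 5.54% in Ptch1 tumours, and 50.2%, 51.2% and 52.2% in cerebellum. The H2A variants made up 2.37%, 4.21% and 1.94% in A1G tumours, 1.74%, 1.94% and 1.47% in Ptch1 tumours, and 6.60%, 10.2% and 9.72% in cerebellum. The H1 variants made up 7.85%, 10.95% and 8.54% in A1G tumours, 10.01%, 9.92% and 8.36% in Ptch1 tumours, and 46.9%, 47.3% and 37.5% in cerebellum. In all 3 classes every tumour library lay below every cerebellum library, and no test was made.

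Behind these shares, the 12 replication-dependent H3 genes summed to 4904 to 6652 FPKM in A1G tumours, 5502 to 7126 FPKM in Ptch1 tumours and 146 to 199 FPKM in cerebellum, where the authors' tumour and cerebellum FPKM come from separate scalings. All 12 were higher in tumours (median log2 change 5.04), as were 17 of 18 H2A genes (5.69), 17 of 18 H2B genes (5.36), all 13 H4 genes (2.67) and all 6 H1 genes (4.19), and none was lower. These classes were taken by gene symbol. The H1 class therefore includes Hist1h1t and the H2B class Hist3h2ba, which are also described below among further variant genes. In the H1 share Hist1h1t counts on the replication-dependent side. Near-identical copies share reads, so single genes of these clusters are uncertain, and FPKM of such short transcripts depends on the authors' length correction. Counted in raw fragments, an alternative added after the data were seen, the H3.3 share averaged 28.5% in A1G tumours, 23.05% in Ptch1 tumours and 81.2% in cerebellum. The direction was the same in all 3 classes, and the size of the share was not. The summed dividing cell markers given above differed between the tissues in the same libraries, and their part was not tested.

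**Figure D4:**
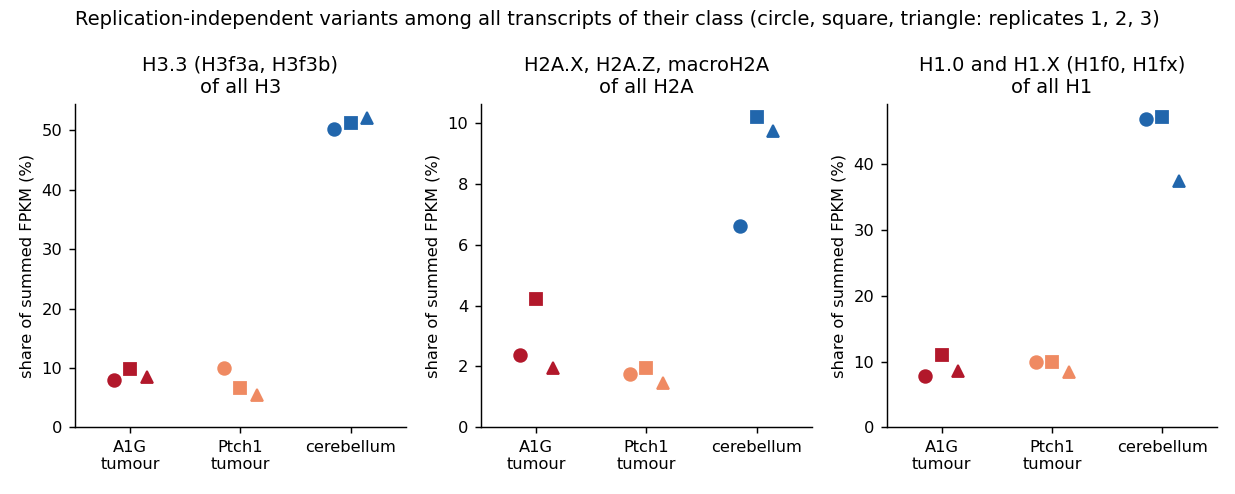
Share of the summed FPKM of a histone class (y axis, percent, from 0) taken by the replication-independent variants in each library, for H3, H2A and H1, with a symbol per replicate. All tumour libraries lie below all cerebellum libraries in each panel, at 5.54% to 10.1% against 50.2% to 52.2% for H3.

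Chaperones and partners were read from lists of the pathway, chosen with earlier results of these data known. Of 10 H3.3 chaperones and loaders, 7 were higher and none lower in tumours, with a median log2 change of 0.74. Over all tested genes 20.7% were higher and 21.5% lower. Taken alone, 2 of the 10 were higher in A1G tumours, against 16.3% of genes, and 6 in Ptch1 tumours, against 20.2%. Dek, a chromatin protein that handles H3.3, changed most (312 ± 174 CPM in tumours and 68.2 ± 22.04 CPM in cerebellum; log2 2.16, SE 0.47, adjusted p = 0.00278), before the remodeller Chd1 (1.21), the helicase Atrx (1.10) and the chaperone Asf1a (0.86). Hira and Daxx, which define the main H3.3 deposition routes and are named here after their values were seen, were higher by 0.67 (SE 0.22, adjusted p = 0.0272) and 0.81 (SE 0.26, adjusted p = 0.0226). In A1G tumours alone Dek and Chd1 passed, and Atrx, Asf1a, Hira and Daxx did not (edgeR's adjusted p = 0.0851, 0.0949, 0.069 and 0.171). All 6 replication-coupled H3 chaperones were higher, with a median of 4.38. Among them, Mcm2, a helicase subunit that also holds H3 and H4, stood at 232 ± 86.5 CPM in tumours and 7.68 ± 3.61 CPM in cerebellum (log2 4.85, SE 0.39, adjusted p = 2.12e-06). The CAF-1 subunits Chaf1b and Chaf1a stood at 64.9 and 163 CPM in tumours and at 0.357 and 10.3 CPM in cerebellum, and Asf1b at 19.7 CPM in tumours and 0.672 CPM in cerebellum.

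Of 13 tested H2A.Z loaders and removers, 7 were higher and none lower (median 0.66). Over all tested genes 20.7% were higher and 21.5% lower. The largest changes were in Anp32e, which takes H2A.Z off nucleosomes (484 ± 234 CPM in tumours and 93.1 ± 26.9 CPM in cerebellum; log2 2.33, SE 0.36, adjusted p = 0.000262), and in Actl6a (2.10), Ruvbl2 (1.69) and Ruvbl1 (1.47), subunits of exchange complexes. Of 11 tested H2A.X kinases, readers and phosphatases, 7 were higher and 1 was lower (median 0.86). Brca1, a repair protein recruited to marked breaks, was higher by 5.98 (SE 0.49, adjusted p = 2.33e-06), the kinase Atm by 1.95 and the reader Mdc1 by 1.81, while Eya2, a member of the family of phosphatases that act on H2A.X, fell by 4.02 (SE 0.62, adjusted p = 0.000257). All 7 tested macroH2A partners and FACT subunits were higher (median 1.65), led by the remodeller Hells (5.09), the lamin Lmnb1 (4.63), the heterochromatin protein Cbx5 (2.07) and the FACT subunit Ssrp1 (1.65). Of 6 tested genes that supply replication-dependent histone mRNA, 3 were higher, Eri1 (1.69), Casp8ap2 (1.51) and Slbp (1.43), and Lsm11 was lower (-1.61). In A1G tumours alone 5 H2A.Z, 5 H2A.X, 7 macroH2A and FACT and 2 supply genes were higher, against 16.3% of genes. In Ptch1 tumours alone 7, 6, 7 and 3 were higher in the same order, against 20.2%.

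Among 8 further variant genes present in the table, 4 were expressed highly enough to be tested. Of those, 3 were higher in tumours, against 20.7% of all tested genes. Taken alone, 1 was higher in A1G tumours, against 16.3%, and 4 in Ptch1 tumours, against 20.2%. Cenpa, the centromeric H3, had 38.0 ± 12.5 CPM in A1G libraries, 28.3 ± 12.5 CPM in Ptch1 libraries, against 0.0875 ± 0.152 CPM in cerebellum libraries, where 1 fragment was seen in all. Hist3h2ba was higher by 1.07 (SE 0.26, adjusted p = 0.00559). Hist1h1t, the testis linker histone, had at most 11 fragments in a tumour library and none in cerebellum, and no fold is given. H2afj, a mammalian H2A variant tied to senescence, had 51.7 ± 11.1 CPM in A1G libraries and 109 ± 37.2 CPM in Ptch1 libraries, against 59.9 ± 3.65 CPM in cerebellum libraries. It passed in Ptch1 tumours (log2 0.86, SE 0.30, adjusted p = 0.0348) but not in A1G tumours (-0.21, SE 0.30) or over both kinds (0.33, SE 0.26, adjusted p = 0.336), and the difference between the tumour kinds did not pass either (-1.07, SE 0.30, adjusted p = 0.297).

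Across the 9 libraries the genes whose log2 CPM ran most like a member's were found by Pearson's r, over points that share the difference between tumour and cerebellum. They were Hn1l and Evc2 for H2afx (0.994 both), Pcna and Etf1 for H2afz (0.993 and 0.99), Hnrnpu and Lima1 for H2afv (0.966 and 0.959), and Tacc3 and Hist1h4f for H2afy (0.996 and 0.995). For the rest they were Rai2 and Fam172a for H2afy2 (0.986 and 0.974), Whsc1 and Eri2 for H3f3a (0.988 both), Slain2 and Arpc5 for H3f3b (0.982 and 0.981), Sf3b1 and Rpl36a for H1f0 (0.978 and 0.971), and Golim4 for H1fx (0.991). Among the members themselves, r ran from 0.498 (H1f0 with H2afy2) to 0.94 (H1fx with H2afx).

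For 6 of the 9 genes the annotation places exons of another gene on the opposite strand, and the counting is not stated to use strand. These are 638 bases of Gm17275 and 160 of H3f3aos over H3f3a, 501 of Gm47071 over H2afy, 233 of Aifm2 over H2afy2, 213 of Gm5577 over H1fx, 163 of Gm49544 over H1f0 and 141 of Gm44335 over H2afx. Reads of these partners cannot be told apart from those of the members, while H2afz, H2afv and H3f3b have no such overlap.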

How the data were processed

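RNA from 9 libraries was measured by ribosome-depleted RNA-seq. Per the submitters' processing notes the build was mm10 and Bowtie 0.12.2 was named, with no step stated and with a gene counter not given in the sources used here. Per the file headers, the deposited expected counts are raw fragments per gene. The deposited signal columns are those fragments scaled by the authors, equal in both columns, and the deposited FPKM are computed by the authors from them, with tumours and cerebellum scaled separately. FPKM therefore compare genes within a library only. The limma alternatives named below used FPKM and cross these separate scalings in every comparison with cerebellum.

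Fragments were rounded. The test took genes at or above an FPKM of 1 in 3 or more libraries, and was run with edgeR 4.0.16 (R 4.3.3), TMM over 9 libraries and 1 mean per group. Alternatives used DESeq2 1.42.0, limma 3.58.1, other filters and scalings, a replicate block, a GC adjustment and each library left out. The edgeR procedure was checked on simulated data. Coordinates are from GENCODE M21, matched by symbol. Depth was 2350941 to 9290237 fragments per library.

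The members and gene lists were chosen with earlier results of these data known. Named genes are the 9 members, up to 4 of the largest changes past the threshold per list, and the 2 most similar genes per member, of which 1 is not reported here. Deviations of same-numbered libraries correlated at r from -0.0607 to 0.195, within the range of differently numbered libraries (-0.232 to 0.22). No pairing by number was therefore used. The labels do not say which libraries shared a sequencing chip, so an effect of the chip was not tested.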

Additional observations from a re-analysis of the deposited data

How the results depend on the processing

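Of 675 recomputed changes of single members, 646 kept their direction and their side of the threshold, 20 lost a call and 9, all between A1G and Ptch1 tumours, changed sign. For H3f3a the sign changed with a stricter filter (0.014), with library totals (0.077) and within a range of -0.27 to 0.30 when 1 library was left out. For H2afz that range was -0.027 to 0.38 and for H2afy2 -0.71 to 0.085. The lost calls were those of H1f0 against cerebellum given above, of H2afv in A1G tumours (adjusted p 0.0637 and 0.0669 with limma, 0.0528 with the GC adjustment, up to 0.154 with 1 library left out) and of H2afy2 in A1G tumours without cerebellum replicate 2. The limma values are from FPKM scaled separately for tumours and cerebellum. Without 1 library the members called were 8 to 9 in tumours, 6 to 8 in A1G tumours and 8 to 9 in Ptch1 tumours, and H1fx ran from 3.09 (without A1G replicate 2) to 4.37.

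Between A1G and Ptch1 tumours, 2 genes of the whole table were called. DESeq2 called 163, a fit without the filter on low values 81, limma on log2(FPKM + 1) 0 and the tumour libraries alone 0, with 0 to 4 when 1 library was left out; the cause was not tested. No setting called a member there. Scaling by library totals moved the median log2 change of all genes to 0.13 between tumour kinds. The whole-table counts against cerebellum ran from 4624 to 6471 for tumours, 3376 to 4744 for A1G and 4424 to 6219 for Ptch1 tumours without 1 library.

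With the replicate number as a block the calls were 2 between tumour kinds, 5891 in tumours, 4456 in A1G and 5593 in Ptch1 tumours against cerebellum, and 0, 9, 8 and 9 members. The block changed no member's call.

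The difference between tumour kinds in the log2 ratio of H2afy over H2afy2 ran from -0.37 to 0.64 and that of H3f3a over H3f3b from -0.59 to 0.26 when 1 library was left out. By raw fragments instead of FPKM the variant shares were 28.5%, 23.05% and 81.2% of H3, 13.3%, 8.78% and 28.5% of H2A, and 16.15%, 16.24% and 50.02% of H1 in A1G tumours, Ptch1 tumours and cerebellum. By construction a raw fragment count does not divide by transcript length. The comparison of tumours with cerebellum used all libraries, so no fit on fewer groups was made. Depth limits H1fx most, with 7 to 39 fragments in cerebellum.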
